A study of Homo sapiens with 9 samples.

Results

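The 10 genes described here encode proteins of the synaptic vesicle and of the machinery that fuses it with the cell membrane: SV2A, SV2B, SV2C, SYP and SYN1 on the vesicle, SYT1 and SYT4 of the calcium-sensing synaptotagmins, and the SNARE genes VAMP2, STX1A and SNAP25. They were taken by name from the deposited table, which held all 10 among 19706 entries with a usable gene symbol. Polyadenylated RNA was sequenced from untreated cultures of 3 human neuroblastoma lines, with 3 libraries per line. Kelly and BE(2)C carry amplified MYCN and SH-SY5Y does not; BE(2)C and SH-SY5Y are each a clone of an older line. Since SH-SY5Y is the only line without the amplification, effects of MYCN status cannot be told apart from other differences between the lines. No label says that the libraries of a line came from separate cultures, so the p-values below describe the spread between libraries only, which may be technical.

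In a neuron, vesicles filled with transmitter dock at the membrane, where VAMP2 on the vesicle and STX1A and SNAP25 on the plasma membrane zip into a SNARE complex that pulls the membranes together. SYT1 binds calcium and triggers the final step, synapsins tether the reserve pool of vesicles, and SV2 proteins are vesicle glycoproteins thought to prime release. Sympathoadrenal cells, the lineage from which neuroblastoma arises, use much of the same machinery to release catecholamines from dense-core granules, and SYP and SNAP25 are widely used as markers of neuroendocrine tumours.

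Levels are given as scaled TPM: deposited values returned from the log10 scale, recomputed as TPM (transcript abundance per length, as a part of a fixed total) over the gene entries, and divided by a trimmed-mean factor of each library. Fold changes are log2 differences of scaled TPM + 1 with their standard error, and a gene is called at a limma adjusted p under 0.05. Spike-in RNA made up 83.7% to 90.6% of the back-transformed total and mitochondrial genes 16.5% to 35.3% of the gene total, with all BE(2)C libraries at 24.5% or more and the others at 19.8% or less, and the depth of the libraries is unknown. Over 61 abundant spike-ins the largest shift between lines was 1.38 on the log2 scale for Kelly against SH-SY5Y and 1.20 for Kelly against BE(2)C, but 0.175 for BE(2)C against SH-SY5Y. The part of such shifts in the Kelly differences was not tested. MYCN, the check of the labels, was at 27.3 ± 1.01 scaled TPM in SH-SY5Y (SD, n = 3), against 5970 ± 77.6 in Kelly and 6050 ± 1088 in BE(2)C. The 12 markers of sympathoadrenal neuroblasts summed to 9500 to 11076 in the Kelly libraries, 8172 to 9106 in BE(2)C and 7472 to 7634 in SH-SY5Y. They were not all high: TH had a mean of 0.191 and DDC of 4.30 in SH-SY5Y, both enzymes of catecholamine synthesis. The 18 markers of leukocytes, epithelium, liver, blood, endothelium and glia summed to 4.32 to 8.44 in Kelly, 10.6 to 19.0 in BE(2)C and 5.66 to 7.16 in SH-SY5Y, with CD3E, ALB and HBB at 0 in every library.

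Promoter windows of 9 of the 10 genes were found in RefSeq (GRCh38.p14, 250 bases before to 50 bases after each start). SNAP25 had no entry. The only SV2A window (chromosome 1, 149906942 to 149907241, minus strand) lies inside the gene, whose start in GENCODE 29 is at 149917882. The promoter at that start of SV2A was therefore not searched. They were searched on both strands for the arms of RE1, the element through which the repressor REST silences neuronal genes outside neurons, since the lines differed in REST. The left arm is TCAGCACC and the right arm is GGACAG, here 2 bases apart. The left arm was present in 1.67% of all 35116 windows of this length and the right arm in 20.5%, while both arms at that spacing were present in 0.0399%. The 3 windows below hold the left arm and belong to a gene measured above 1 scaled TPM; capitals mark the RE1 letters and, in SYN1, also the cyclic AMP response element TGACGTCA (1.85% of all windows). In SYN1 the right arm forms part of the longer run of capitals.

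SYN1, chrX:47619808-47620107, minus strand: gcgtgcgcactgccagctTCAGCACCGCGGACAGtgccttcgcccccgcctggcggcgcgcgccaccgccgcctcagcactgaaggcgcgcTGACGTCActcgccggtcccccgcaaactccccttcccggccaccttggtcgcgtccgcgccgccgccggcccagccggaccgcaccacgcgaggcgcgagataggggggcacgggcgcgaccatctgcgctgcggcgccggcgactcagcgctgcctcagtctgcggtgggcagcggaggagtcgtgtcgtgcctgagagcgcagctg
SV2C, chr5:76083133-76083432, plus strand: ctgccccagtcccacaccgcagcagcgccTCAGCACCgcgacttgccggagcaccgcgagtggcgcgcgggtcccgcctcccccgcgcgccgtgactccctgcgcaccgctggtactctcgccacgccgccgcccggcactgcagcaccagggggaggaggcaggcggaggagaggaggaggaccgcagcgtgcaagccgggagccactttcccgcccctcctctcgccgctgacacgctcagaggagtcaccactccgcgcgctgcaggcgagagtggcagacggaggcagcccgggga
SYT4, chr18:43277441-43277740, minus strand: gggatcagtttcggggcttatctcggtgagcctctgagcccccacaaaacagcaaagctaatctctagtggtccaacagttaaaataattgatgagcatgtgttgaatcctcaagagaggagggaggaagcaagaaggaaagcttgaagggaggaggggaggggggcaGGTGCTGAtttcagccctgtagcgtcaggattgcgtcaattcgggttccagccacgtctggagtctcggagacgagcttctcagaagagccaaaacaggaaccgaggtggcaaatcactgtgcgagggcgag

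Of the 9 genes with windows, SYN1 alone held both arms at this spacing, at positions -232 to -217 counted from its start. SV2C held the left arm on its own strand, SYT4 held it on the opposite strand, and SV2B, a gene listed near 0, held it in 1 of its 4 windows. None of the windows held the E-box CACGTG, a binding motif of MYC-family proteins present in 7.26% of all windows. These matches are letters in a window and say nothing of binding, and for SV2A the window does not cover the start annotated in GENCODE.

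SV2C, the member of the SV2 family with the narrowest distribution in the brain, separated the 3 lines by the widest margin. The SH-SY5Y libraries had 76.9, 78.7 and 78.9 scaled TPM, the Kelly libraries 6.33, 5.81 and 5.72, and those of BE(2)C 0.0825, 0.0948 and 0.0867. No library of any line overlapped those of another. The gene (chromosome 5, 76083172 to 76353939, GRCh38, GENCODE 29) was 13.1-fold lower in Kelly than in SH-SY5Y by the means, or -3.51 ± 0.14 on the log2 scale (limma, adjusted p = 8.06e-08). Against SH-SY5Y, BE(2)C was lower by -6.18 ± 0.14 (adjusted p = 6.69e-09). Kelly was above BE(2)C by 2.68 ± 0.14 (adjusted p = 6.31e-07). The size of the last 2 differences depends on the constant added before the logarithm: with 0.1 they were -8.70 and 5.01, and with 10 they were -3.13 and 0.66. On values as deposited, where each library is mostly spike-in RNA, they were -3.85 and 0.69. SV2C reached the filter of 1 scaled TPM in the 6 libraries of Kelly and SH-SY5Y. In bulk RNA, fewer cells with a transcript and less transcript per cell cannot be told apart.

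SV2A, the broadly expressed family member and the binding site of the antiepileptic drug levetiracetam, was abundant in all lines. Its values were 141, 125 and 129 scaled TPM in Kelly, 75.9, 90.5 and 92.9 in BE(2)C and 89.9, 94.2 and 90.5 in SH-SY5Y. Every Kelly library lay above every other library, while BE(2)C and SH-SY5Y overlapped. SV2A (chromosome 1, 149903318 to 149917882) was higher in Kelly than in SH-SY5Y by 0.52 ± 0.09 (adjusted p = 8.22e-04) and than in BE(2)C by 0.61 ± 0.09 (adjusted p = 3.47e-04); the second was 0.93 with library totals only. The first of these turned to -0.18 on values as deposited (adjusted p = 0.135). BE(2)C and SH-SY5Y differed by -0.09 (95% interval -0.28 to 0.11; adjusted p = 0.414), but BE(2)C was called lower with library totals only (-0.54), on values as deposited (-0.61), with mitochondrial genes left out of the total (-0.30) and with quantile normalization (-0.25).

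SV2B (chromosome 15, 91099950 to 91301309), the third family member, was at 0.110, 0 and 0.0412 scaled TPM in Kelly, 0.0203, 0.169 and 0.283 in BE(2)C and 0.266, 0.234 and 0.0166 in SH-SY5Y. It did not reach the filter in any library and was not tested, so 9 of the 10 genes entered the fit.

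The makeup of the SV2 family within each library does not depend on how libraries were scaled. SV2C supplied 46.0%, 45.4% and 46.6% of the summed SV2 TPM in the SH-SY5Y libraries, 4.30%, 4.44% and 4.24% in Kelly, and 0.109%, 0.104% and 0.0930% in BE(2)C. SV2A supplied nearly all of the rest, at 53.9 ± 0.502% in SH-SY5Y (SD, n = 3), 95.6 ± 0.0867% in Kelly and 99.7 ± 0.131% in BE(2)C. By TPM, SH-SY5Y thus held SV2A and SV2C transcripts at similar levels, where Kelly and BE(2)C held almost only SV2A. How the 2 genes compare within a line is uncertain, since levels of different genes compare poorly in this table (given below). The BE(2)C share of SV2C rests on deposited values near 0, at 0.0105, 0.0109 and 0.00952 TPM. Each difference in the SV2C share between lines had an exact two-sided permutation p of 0.1, the smallest that 3 against 3 libraries can give.

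**Figure D1:**
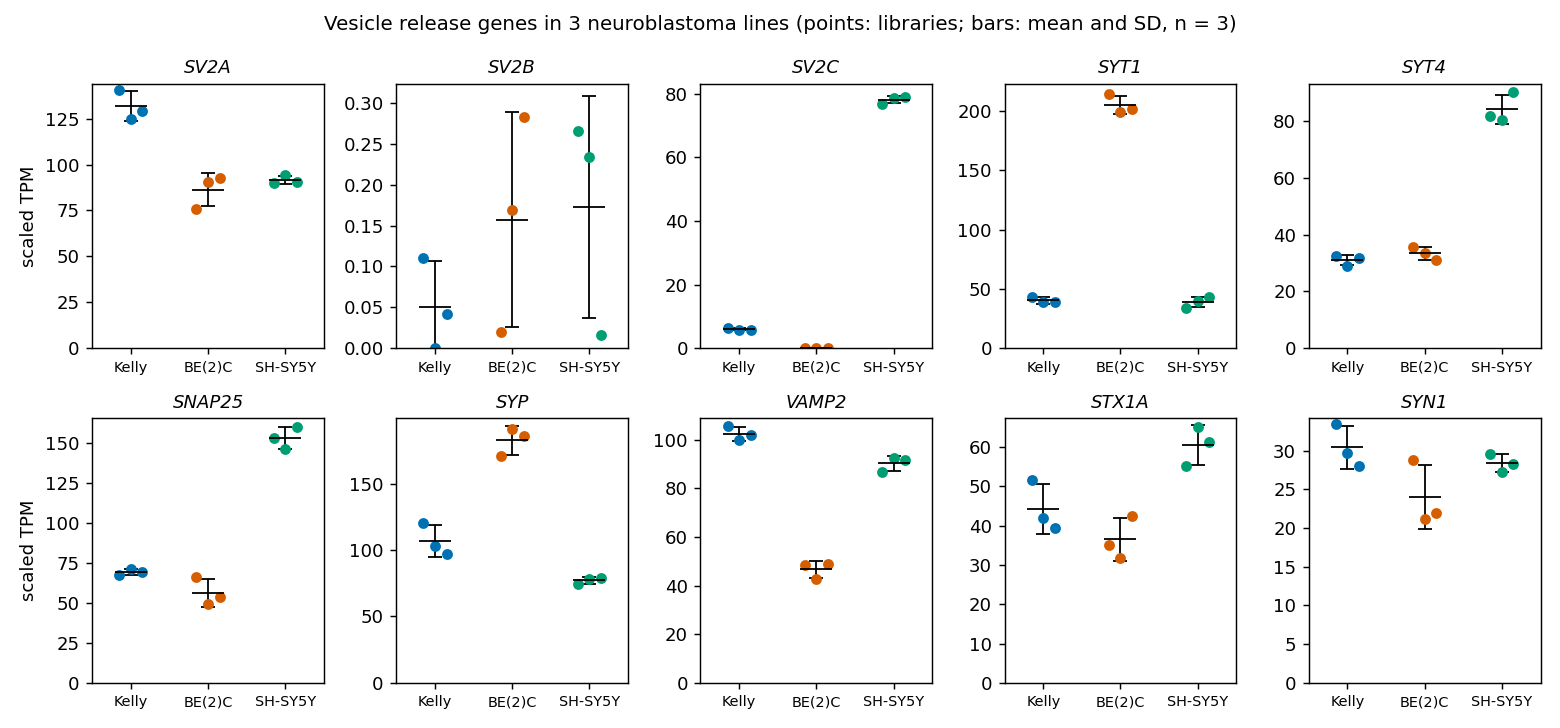
Scaled TPM (vertical axes, each starting at 0 with its own range) of the 10 genes in the 3 libraries of each line; points are libraries and the bars give the mean and SD. SV2C, SYT4 and SNAP25 lie highest in SH-SY5Y, SYT1 and SYP highest in BE(2)C, and SV2B stays under 0.3 in every library.

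SYT1, the fast calcium sensor of transmitter release, was high in BE(2)C alone. It stood at 214, 199 and 202 scaled TPM in the BE(2)C libraries, whereas the Kelly libraries had 43.5, 38.9 and 38.5 and those of SH-SY5Y 34.1, 39.7 and 43.0. The BE(2)C libraries lay far above the others, and those of Kelly and SH-SY5Y overlapped. BE(2)C exceeded SH-SY5Y 5.26-fold by the means (2.37 ± 0.10; adjusted p = 9.1e-08) and Kelly 5.09-fold (Kelly against BE(2)C, -2.32 ± 0.10; adjusted p = 1.97e-07). Between Kelly and SH-SY5Y the difference was 0.05 (95% interval -0.16 to 0.27; adjusted p = 0.680), and it was -0.56 and called on values as deposited (adjusted p = 0.00186). SYT1 lies on chromosome 12 (78863993 to 79452008).

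SYT4, a synaptotagmin found on granules and vesicles whose first C2 domain lacks a calcium-binding residue, followed another order. Its values were 81.8, 80.7 and 90.3 scaled TPM in SH-SY5Y, 32.3, 29.05 and 31.9 in Kelly and 35.6, 33.7 and 31.1 in BE(2)C. All SH-SY5Y libraries were above those of the amplified lines, which overlapped each other. SYT4 (chromosome 18, 43267878 to 43277650) was lower than in SH-SY5Y by -1.41 ± 0.09 in Kelly (adjusted p = 1.43e-06) and by -1.31 ± 0.09 in BE(2)C (adjusted p = 2.03e-06). Kelly and BE(2)C differed by -0.10 (95% interval -0.30 to 0.10; adjusted p = 0.365).

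Within a library, SYT1 made up 85.8%, 85.5% and 86.7% of the SYT1 and SYT4 total in BE(2)C, 57.3%, 57.2% and 54.7% in Kelly and 29.4%, 33.0% and 32.3% in SH-SY5Y. By TPM, SYT1 was thus the larger part in BE(2)C and the smaller part in SH-SY5Y, with Kelly between them. Since levels of different genes compare poorly in this table (given below), which part is larger within a line is uncertain. The lines did not overlap, and each pair gave the smallest exact permutation p of 0.1.

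Among the SNARE genes, SNAP25 was highest in SH-SY5Y. It was at 153, 146 and 160 scaled TPM there, at 67.5, 71.3 and 69.2 in Kelly and at 65.9, 49.3 and 53.5 in BE(2)C. The SH-SY5Y mean was 2.21-fold that of Kelly and 2.72-fold that of BE(2)C, and no SH-SY5Y library came near the others. SNAP25 (chromosome 20, 10218830 to 10307418) was lower by -1.13 ± 0.10 in Kelly (adjusted p = 1.5e-05; -1.72 on values as deposited) and by -1.44 ± 0.10 in BE(2)C (adjusted p = 2.74e-06). Kelly lay slightly above BE(2)C (0.31 ± 0.10; adjusted p = 0.0301; 0.63 with library totals only), a call that ended on values as deposited (0.15, adjusted p = 0.430), in a fit of these 2 lines alone (adjusted p = 0.0657), and without any one of Kelly replicates 1, 2 or 3 or BE(2)C replicates 2 or 3 (adjusted p from 0.0526 to 0.101).

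VAMP2, the vesicle SNARE also called synaptobrevin-2, was low in BE(2)C. Its values were 48.3, 42.6 and 48.9 scaled TPM in BE(2)C, 106, 99.8 and 102 in Kelly and 86.5, 92.3 and 91.7 in SH-SY5Y. No BE(2)C library came near those of the other lines. VAMP2 (chromosome 17, 8159149 to 8163546) was lower in BE(2)C than in SH-SY5Y by -0.94 ± 0.07 (adjusted p = 5.2e-06), and Kelly was above BE(2)C by 1.12 ± 0.07 (adjusted p = 2.66e-06). Kelly and SH-SY5Y differed by 0.18 (95% interval 0.02 to 0.35; adjusted p = 0.0610), called in a fit of these 2 lines alone (adjusted p = 0.0315) and without BE(2)C replicate 2 (adjusted p = 0.0400), and -0.49 on values as deposited (adjusted p = 0.00297).

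STX1A, the syntaxin of the neuronal plasma membrane, was at 55.2, 65.2 and 61.3 scaled TPM in SH-SY5Y, 51.6, 42.0 and 39.4 in Kelly and 35.1, 31.9 and 42.5 in BE(2)C. The SH-SY5Y libraries were above all others, and Kelly and BE(2)C overlapped. STX1A (chromosome 7, 73699206 to 73719672) was lower in BE(2)C by -0.72 ± 0.14 (adjusted p = 0.00142), or -1.17 with library totals only and -1.14 on values as deposited. In Kelly it was lower by -0.45 ± 0.14 (adjusted p = 0.0195), a call lost without any one of Kelly replicates 2 or 3 or SH-SY5Y replicates 2 or 3 (adjusted p from 0.0537 to 0.0695); it was -1.02 on values as deposited. Kelly and BE(2)C differed by 0.27 (95% interval -0.03 to 0.58; adjusted p = 0.122), called with library totals only (0.59, adjusted p = 0.0102) and without BE(2)C replicate 3 (0.39, adjusted p = 0.0413).

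The 3 SNARE transcripts stood in different proportions in each line, although their proteins assemble one to one. VAMP2 made up 47.0%, 46.8% and 48.4% of their summed TPM in Kelly, 32.4%, 34.4% and 33.7% in BE(2)C and 29.4%, 30.4% and 29.3% in SH-SY5Y. SNAP25 made up 50.4 ± 1.96% in SH-SY5Y (SD, n = 3), 40.3 ± 3.63% in BE(2)C and 32.1 ± 1.82% in Kelly. STX1A was the smallest part by TPM in every line, at 26.2 ± 2.95% in BE(2)C, against 20.5 ± 2.22% in Kelly and 19.9 ± 1.39% in SH-SY5Y. The order of the parts within a line is uncertain, as levels of different genes compare poorly in this table (given below). Kelly and SH-SY5Y did not differ beyond their spread in the STX1A share (exact two-sided permutation p = 0.7). The other 8 comparisons of a share between lines gave the smallest possible p of 0.1, which says only that the libraries did not overlap. As the 3 shares of a library add up to the whole, these comparisons are not independent.

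**Figure D2:**
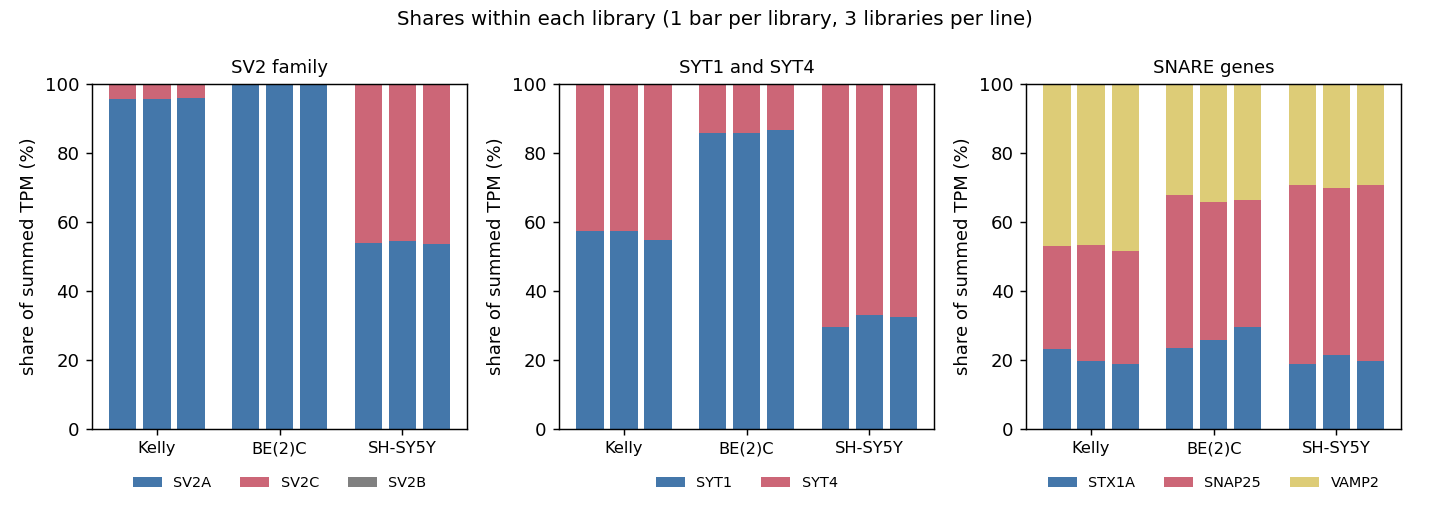
Share of summed TPM (percent, vertical axes from 0 to 100) of each gene within the SV2 family, the SYT1 and SYT4 pair and the 3 SNARE genes, with 1 stacked bar per library and 3 libraries per line. SV2C takes 46.0% on average in SH-SY5Y and 4.33% in Kelly, SYT1 takes 86.0% of its pair in BE(2)C but 31.6% in SH-SY5Y, and the SV2B part is too small to see.

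SYP, synaptophysin, a major membrane protein of small synaptic vesicles, was highest in BE(2)C. It was at 171, 191 and 186 scaled TPM there, with 120, 103 and 96.7 in the Kelly libraries and 74.5, 78.2 and 79.0 in those of SH-SY5Y. The 3 lines did not overlap. SYP (chromosome X, 49187804 to 49200259) was above SH-SY5Y by 1.23 ± 0.09 in BE(2)C (adjusted p = 2.84e-06), or 0.77 with library totals only and 0.63 on values as deposited. Kelly was above SH-SY5Y by 0.46 ± 0.09 (adjusted p = 0.00179), which turned to -0.24 on values as deposited (adjusted p = 0.0517). Kelly was below BE(2)C by -0.77 ± 0.09 (adjusted p = 7.76e-05), or -0.45 with library totals only.

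SYN1, synapsin 1, a phosphoprotein on the cytosolic face of vesicles and a textbook target of REST, varied least. Its values were 33.5, 29.7 and 28.1 scaled TPM in Kelly, 28.8, 21.2 and 22.0 in BE(2)C and 29.6, 27.3 and 28.3 in SH-SY5Y. All 3 lines overlapped. SYN1 (chromosome X, 47571898 to 47619943) was not called in any comparison: 0.09 (95% interval -0.20 to 0.39; adjusted p = 0.579) for Kelly against SH-SY5Y, -0.25 (-0.54 to 0.05; adjusted p = 0.136) for BE(2)C against SH-SY5Y and 0.34 (0.04 to 0.64; adjusted p = 0.0550) for Kelly against BE(2)C. Under other scalings it was called: BE(2)C lay below SH-SY5Y with library totals only (-0.69, adjusted p = 0.00457), on values as deposited (-0.65, 0.00132) and with mitochondrial genes left out of the total (-0.45, 0.0145). It was also called there without BE(2)C replicate 1 (-0.38, adjusted p = 0.0189), the highest of that line. For Kelly against BE(2)C the call appeared with library totals only (0.65, adjusted p = 0.00760), with mitochondrial genes left out of the total (0.41, 0.0256) and without BE(2)C replicate 1 (0.47, 0.00817). For Kelly against SH-SY5Y it appeared on values as deposited, with the sign turned (-0.49, adjusted p = 0.00662).

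Counted over the 9 tested genes, 4 were lower and 2 higher in Kelly than in SH-SY5Y, in a comparison where 55.3% of all tested genes were called, 27.2% lower and 28.1% higher. In BE(2)C against SH-SY5Y, 5 were lower and 2 higher, beside 59.4% of all tested genes called, 30.7% lower and 28.6% higher. In Kelly against BE(2)C, 4 were higher and 2 lower, beside 52.5% called, 27.9% higher and 24.6% lower. The first 2 comparisons share the SH-SY5Y libraries. The totals are not far from the background, and the 9 genes did not share a direction in any comparison. The split moved with the scaling: on values as deposited 0 were higher and 7 lower in Kelly against SH-SY5Y, and 2 higher and 7 lower in BE(2)C against SH-SY5Y. In Kelly against BE(2)C, library totals only gave 6 higher and 2 lower. The background moved with it: of 10279 genes tested on values as deposited, 886 were higher and 6461 lower in Kelly against SH-SY5Y, 1249 higher and 5598 lower in BE(2)C against SH-SY5Y, and 1999 higher and 2991 lower in Kelly against BE(2)C. Of 13107 tested with library totals only, the same comparisons gave 2908 higher and 4105 lower, 1895 higher and 6121 lower, and 5188 higher and 1790 lower. With the main settings, the called Kelly differences of SV2C, SYT1 and SYT4 were larger than the largest spike-in shift of the same comparison, SYT4 narrowly (-1.41 against 1.38). Those of SV2A, SNAP25, VAMP2, SYP and STX1A were smaller than it. Other settings moved genes across: SV2C in Kelly against BE(2)C was 0.66 with 10 added and 0.69 on values as deposited, under the shift of 1.20. SNAP25 in Kelly against SH-SY5Y was -1.72 on values as deposited, beyond 1.38. The shifts were measured on deposited TPM, centred on the spike-in median of each library, and not on scaled TPM.

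**Figure D3:**
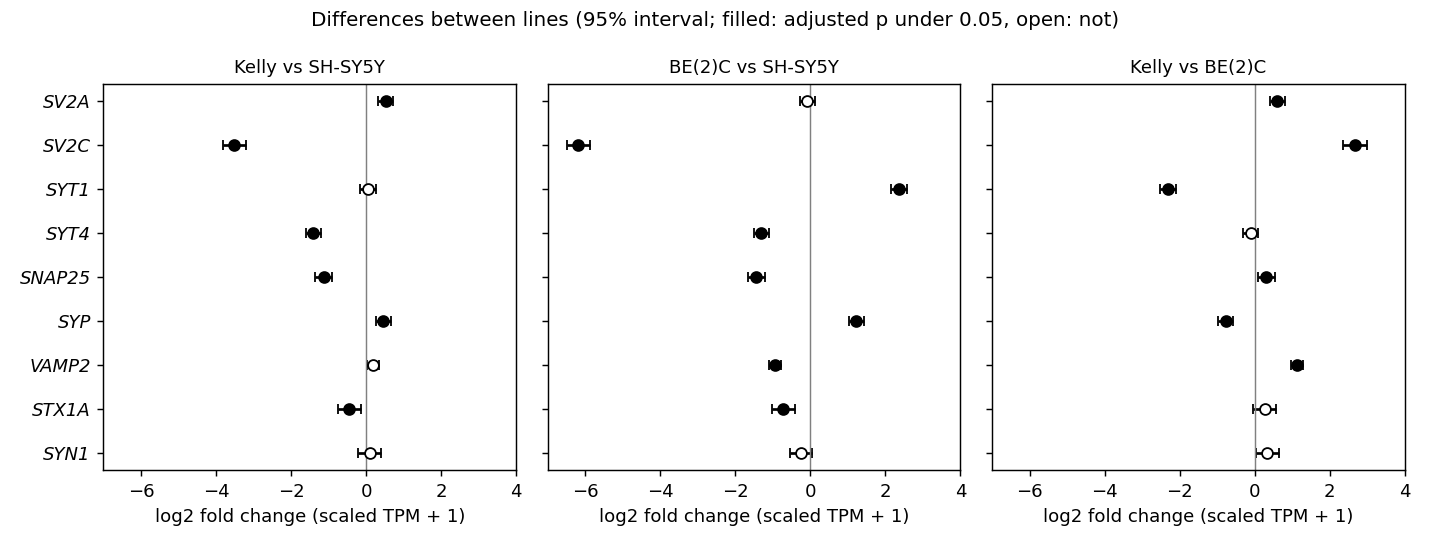
Log2 fold change of scaled TPM + 1 (horizontal axis) for the 9 tested genes in the 3 comparisons, with 95% intervals; filled points were called and open points were not. SV2C has the largest difference in each panel, followed closely by SYT1 in Kelly against BE(2)C (2.68 and -2.32), and SYN1 is open in all 3.

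Within a line the order of the levels also differed. In Kelly it ran SV2A (132 ± 8.20 scaled TPM; SD, n = 3), SYP (107 ± 12.2), VAMP2 (102 ± 2.92), SNAP25 (69.3 ± 1.89), STX1A (44.3 ± 6.42), SYT1 (40.3 ± 2.75), SYT4 (31.1 ± 1.78), SYN1 (30.4 ± 2.78), SV2C (5.96 ± 0.329) and SV2B. The ranges of SYP and VAMP2, of STX1A and SYT1, and of SYT4 and SYN1 overlapped. In BE(2)C SYT1 came first (205 ± 7.87), followed by SYP (183 ± 10.7), SV2A (86.4 ± 9.18), SNAP25 (56.2 ± 8.63), VAMP2 (46.6 ± 3.45), STX1A (36.5 ± 5.47), SYT4 (33.4 ± 2.24) and SYN1 (24.0 ± 4.15), with SV2B and SV2C near 0. There the neighbours STX1A and SYT4, and SV2B and SV2C, overlapped. In SH-SY5Y SNAP25 led (153 ± 6.61), and SV2A (91.5 ± 2.36), VAMP2 (90.1 ± 3.20) and SYT4 (84.3 ± 5.26) overlapped in turn. SV2C (78.1 ± 1.11) and SYP (77.2 ± 2.42) also overlapped, ahead of STX1A (60.6 ± 5.03), SYT1 (39.0 ± 4.50), SYN1 (28.4 ± 1.15) and SV2B. The leading gene of each line, SV2A, SYT1 or SNAP25, stood above 91.1%, 94.4% and 93.8% of all tested genes in that line. Some genes used by every cell have implausibly low values in this table (HSPA8, the chaperone that uncoats clathrin vesicles, was at 1.91 ± 1.28 in Kelly), so the order of levels between genes is uncertain.

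The transcripts most like SV2C over the 9 libraries, by Euclidean distance of centred log2 values, were those of GNG11, EFS and MAGEA3 (distances 0.659, 0.764 and 0.969). GNG11, a G-protein gamma subunit gene, was at 163 ± 5.81 scaled TPM in SH-SY5Y, 15.1 ± 1.75 in Kelly and 2.10 ± 0.307 in BE(2)C. EFS and MAGEA3 were listed at 0 in BE(2)C and stood at 98.6 ± 6.44 and 54.3 ± 4.41 in SH-SY5Y; MAGEA3 has near-identical copies and is uncertain. For SYT1 they were GABRA4, RIMS2 and CACNA1H (0.302, 0.394 and 0.531). RIMS2, an active-zone scaffold gene, was at 69.4 ± 4.66 in BE(2)C, against 13.6 ± 2.12 in Kelly and 13.3 ± 0.603 in SH-SY5Y. GABRA4, a GABA receptor subunit gene, and CACNA1H, a calcium channel gene, were at 3.80 ± 0.218 and 4.25 ± 0.955 in BE(2)C and listed at 0 in the other lines. Their closeness to SYT1 therefore depends on the constant added before the logarithm. For SNAP25 the nearest transcripts were those of TBX3, CLASP2 and PDIK1L (0.328, 0.329 and 0.336).

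The gene lists that follow are to be read against the shares called over all tested genes: 28.1% higher and 27.2% lower in Kelly against SH-SY5Y, 28.6% and 30.7% in BE(2)C against SH-SY5Y, and 27.9% and 24.6% in Kelly against BE(2)C. Splits given for other scalings have the backgrounds printed above for those scalings. Of 12 other vesicle membrane genes tested of 19 listed, 8 rose and 1 fell in BE(2)C relative to SH-SY5Y (median log2 fold change 1.10, against -0.04 over all tested genes), 5 rose and 1 fell in Kelly relative to SH-SY5Y (median 0.24, against 0.00), and 4 were higher and 5 lower in Kelly than in BE(2)C. On values as deposited the Kelly count against SH-SY5Y became 2 higher and 6 lower of 11 tested, and with library totals only the last count became 5 higher and 3 lower. SLC18A2, the vesicular monoamine transporter gene, was at 93.3 ± 25.2 scaled TPM in Kelly but at 6.35 ± 0.959 in BE(2)C and at 0.119 ± 0.113 in SH-SY5Y. SLC18A3, which loads acetylcholine, was at 103 ± 3.74 in BE(2)C, 45.7 ± 3.61 in SH-SY5Y and 17.3 ± 1.70 in Kelly. SYNGR1, a relative of SYP, was higher in Kelly (2.53 ± 0.12) and BE(2)C (2.16 ± 0.12) than in SH-SY5Y, while SYNGR3 was lower in BE(2)C (-2.12 ± 0.33; Kelly, -0.75, adjusted p = 0.0814).

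Of 15 tested synaptotagmins and related C2-domain genes out of 18 listed, 8 fell and 1 rose in BE(2)C relative to SH-SY5Y, and 6 fell and 3 rose in Kelly; between Kelly and BE(2)C, 7 were higher in Kelly and 5 lower. On values as deposited (13 tested) 9 fell and 0 rose in BE(2)C, 9 fell and 3 rose in Kelly, and 7 were higher and 4 lower in Kelly than in BE(2)C; with library totals only the last split was 8 to 3. DOC2B, a high-affinity calcium sensor of release, was at 67.0 ± 3.06 scaled TPM in Kelly and 67.4 ± 2.31 in SH-SY5Y but 3.79 ± 0.674 in BE(2)C, the line with the most SYT1. SYT3 was likewise low in BE(2)C (2.53 ± 0.819, against 22.4 ± 6.01 in Kelly and 25.3 ± 5.77 in SH-SY5Y). SYT2, the closest relative of SYT1, was at 42.6 ± 6.36 in Kelly but at 1.32 ± 0.656 in BE(2)C and at 0.384 ± 0.555 in SH-SY5Y. SYT6 was at 17.5 ± 2.24 in Kelly, 0.0637 ± 0.0751 in BE(2)C and listed at 0 in SH-SY5Y.

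Of 19 tested SNAREs out of 20 listed, 7 fell and 4 rose in BE(2)C relative to SH-SY5Y, 4 fell and 4 rose in Kelly relative to SH-SY5Y, and 7 were higher and 5 lower in Kelly than in BE(2)C. On values as deposited (18 tested) 11 fell and 1 rose in Kelly and 12 fell and 1 rose in BE(2)C, and library totals only gave 10 higher and 2 lower in Kelly than in BE(2)C. Both moved in the direction of the background. SNAP23, the widely expressed relative of SNAP25, had the opposite order of lines to SNAP25: it was at 42.1 ± 3.04 scaled TPM in BE(2)C, followed by 25.3 ± 3.76 in Kelly and 12.7 ± 2.70 in SH-SY5Y, above SH-SY5Y by 1.67 ± 0.17 in BE(2)C and 0.95 ± 0.17 in Kelly. The endosomal STX8 (-2.71 ± 0.43) and the plasma-membrane STX4 (-1.76 ± 0.31) fell in BE(2)C relative to SH-SY5Y, and STX4 also in Kelly (-1.54 ± 0.31).

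Factors that prime or recycle SNAREs split 8 higher to 9 lower among 20 tested of 25 listed in BE(2)C against SH-SY5Y, 8 to 5 in Kelly against SH-SY5Y and 9 to 4 in Kelly against BE(2)C. On values as deposited (17 tested) they split 4 to 7, 5 to 7 and 5 to 5, and with library totals only 5 to 10, 8 to 6 and 11 to 3. CPLX2, a complexin that clamps the SNARE complex, was highest where SYT1 was: it stood at 484 ± 15.8 scaled TPM in BE(2)C, followed by 199 ± 13.3 in Kelly and 59.9 ± 8.06 in SH-SY5Y. UNC13D, a priming factor of granule release, was at 41.3 ± 3.40 in SH-SY5Y, 3.44 ± 1.17 in Kelly and 0.517 ± 0.747 in BE(2)C. The synuclein genes SNCG (20.6 ± 1.93) and SNCB (22.8 ± 6.62) were highest in Kelly, and SNCG was listed at 0 in SH-SY5Y.

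Among active-zone and RAB3-related genes, 12 of 22 tested (23 listed) were higher in Kelly than in BE(2)C and 2 lower, with a median of 0.48 against 0.02 over all tested genes; on values as deposited (17 tested) 7 were higher and 4 lower. Against SH-SY5Y, 5 were higher and 11 lower in BE(2)C and 6 higher and 4 lower in Kelly, the latter becoming 2 higher and 11 lower on values as deposited. RIMS3 was higher than in SH-SY5Y in Kelly (1.59 ± 0.08) and in BE(2)C (1.35 ± 0.08). RAB3C, a vesicle GTPase gene, was at 64.8 ± 4.98 scaled TPM in BE(2)C, compared with 26.1 ± 5.30 in Kelly and 20.8 ± 1.26 in SH-SY5Y, and RAB27B, which docks granules, was at 14.0 ± 2.96 in Kelly and 0.147 ± 0.0381 in SH-SY5Y. Vesicle endocytosis genes split 10 higher to 7 lower among 25 tested of 28 in Kelly against SH-SY5Y, 8 to 8 in BE(2)C against SH-SY5Y and 8 to 7 in Kelly against BE(2)C; on values as deposited (21 tested) they split 1 to 15, 2 to 14 and 3 to 6, and with library totals only 6 to 9, 2 to 15 and 14 to 3. STON2, an endocytic adaptor gene, was higher in BE(2)C (2.25 ± 0.23) and in Kelly (1.64 ± 0.23) than in SH-SY5Y, and BIN1 was lower in both (-2.36 ± 0.21 and -2.82 ± 0.21).

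**Figure D4:**
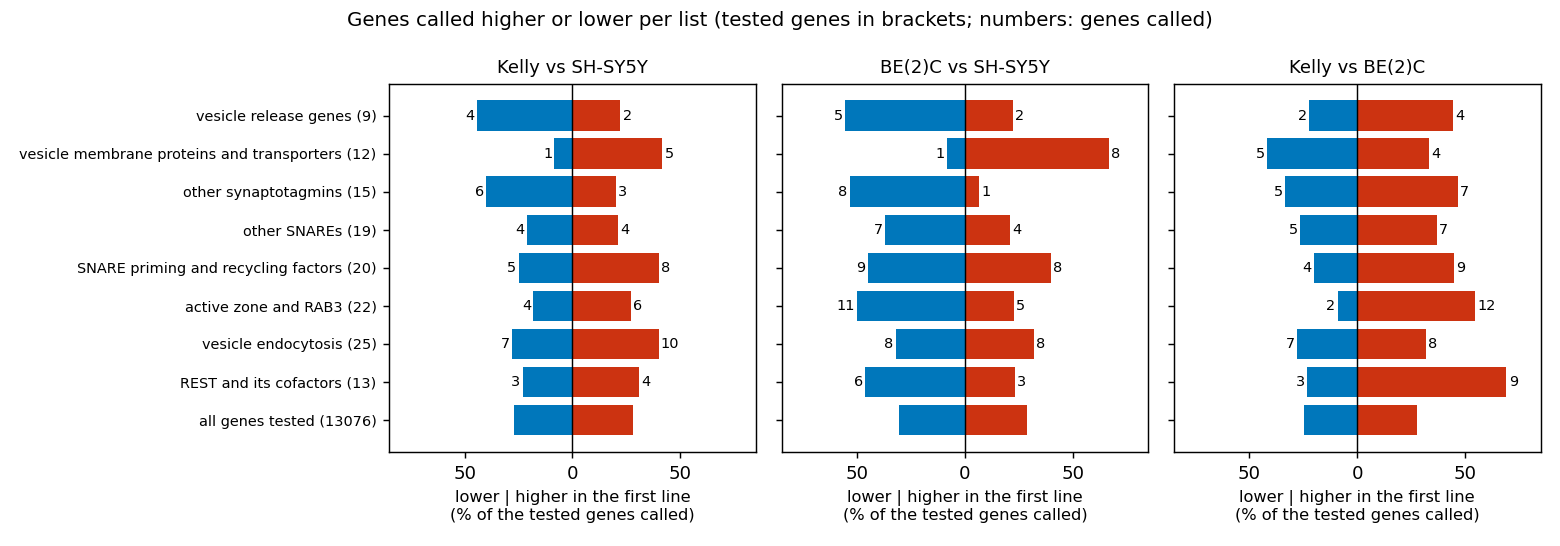
Percent of the tested genes of each list called higher (right) or lower (left) in the first-named line, with the number of genes called beside each bar and the tested genes in brackets; the bottom bar is all 13076 tested genes. Vesicle membrane genes reach 8 of 12 higher in BE(2)C against SH-SY5Y, and active-zone genes 12 of 22 higher in Kelly against BE(2)C.

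REST itself, the repressor of neuronal genes, was highest in SH-SY5Y. It stood at 25.0 ± 1.84 scaled TPM in SH-SY5Y (SD, n = 3), 2.05 ± 0.396 in Kelly and 0.675 ± 0.0872 in BE(2)C, lower by -3.10 ± 0.17 in Kelly (adjusted p = 5.23e-07) and by -3.96 ± 0.17 in BE(2)C (adjusted p = 1.18e-07). SYN1, whose window held both RE1 arms, had adjusted p from 0.0550 to 0.579 in the 3 comparisons, and the alternative settings that call it are given with its values. Of 13 tested genes of REST and its cofactors out of 14 listed, 4 rose and 3 fell in Kelly relative to SH-SY5Y, 3 rose and 6 fell in BE(2)C relative to SH-SY5Y, and 9 were higher and 3 lower in Kelly than in BE(2)C. On values as deposited (13 tested) 0 were higher and 10 lower in Kelly and in BE(2)C against SH-SY5Y, and 4 higher and 3 lower in Kelly against BE(2)C. Library totals only gave 2 higher and 4 lower, 0 higher and 10 lower, and 9 higher and 2 lower in these comparisons. The corepressor gene RCOR1 was at 52.9 ± 2.80 in BE(2)C, 36.0 ± 1.38 in SH-SY5Y and 17.1 ± 1.501 in Kelly, and its relative RCOR2 was at 98.9 ± 4.24 in Kelly, 56.7 ± 2.38 in SH-SY5Y and 47.1 ± 2.57 in BE(2)C. Whether REST protein differed was not measured here, and the part of REST in the differences between the lines was not tested.

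Exons of 6 of the 10 genes overlap another annotated gene in GENCODE 29: STX1A with BUD23 and SYN1 with ARAF on the opposite strand, VAMP2 with AC129492.3 and SYN1 with AL009172.2 on the same strand, and SV2C, SYT1 and SYP with antisense genes. The labels do not say whether reads were assigned by strand, so values of these genes may include reads of the partner, and for the same-strand pairs strand would not separate them.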

How the data were processed

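The deposited table holds log10 values for 9 libraries; from the values themselves they are log10(TPM + 1) made by the authors, since on the linear scale the libraries sum to 966592 to 980009. Per the submitters' processing notes, Salmon 0.3.2 and HISAT 0.1.6 were used with GRCh38, roles not given. How transcripts became genes, and the depth, are not given in the sources used here, and TPM allows no counting interval. Of 19837 entries, 92 spike-ins and 11 markers were left out of the gene total, and 28 date-like names stayed in the total but out of the tests. The table has 0 unused columns, and no pair of libraries was identical (0 pairs).

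Values were rescaled to the gene entries and divided by an unweighted trimmed-mean factor (30% of log ratios and 5% of levels trimmed; factors 0.758 to 1.17). limma 3.58.1 (R 4.3.3), trend method, was fitted to log2(scaled TPM + 1) over all 9 libraries for the 13076 genes that reached 1 in 3 or more libraries, two-sided, with Benjamini-Hochberg adjustment over all genes; the script was tested on simulated data. The genes and lists were chosen with earlier results of these data known. Named are the 10 genes, MYCN and REST, and from each other list up to 4 called genes with at least 10 scaled TPM in the highest line and the largest change (1 gene that the rule names is not reported here); a few genes outside that rule are named as marker checks (DDC, DBH, CD3E, ALB and HBB, chosen after their values were seen). For the 3 genes with the widest range between lines, the 3 nearest genes by distance are given. Alternatives covered scaling, pseudocount (0.1 and 10), the filter (none and 10), the libraries fitted, a replicate block and leaving out each library.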

Additional observations from a re-analysis of the deposited data

How the results depend on the processing

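The number of genes called, overall and among the 10, stayed within 1.5 times its value in each of the 3 comparisons under every alternative run: leaving out a library gave 6152 to 7359 genes for Kelly against SH-SY5Y, 6725 to 7793 for BE(2)C against SH-SY5Y and 6051 to 6663 for Kelly against BE(2)C. The direction split did not: calls were higher in 50.8% of cases for Kelly and 48.2% for BE(2)C against SH-SY5Y, but 12.1% and 18.2% on values as deposited and 41.5% and 23.6% with library totals only. For Kelly against BE(2)C it was 53.2%, 74.3% with library totals only and 40.1% on values as deposited. Single genes turned sign in 13 cases, only 2 of them called before. On values as deposited, Kelly against SH-SY5Y gave -0.18 for SV2A and -0.24 for SYP, which had been called, and -0.49 for SYN1, -0.56 for SYT1 and -0.49 for VAMP2. With library totals only it gave -0.0397 for SYN1 and -0.0831 for SYT1, and with mitochondrial genes left out -0.0405 and -0.0839. Leaving out 1 SH-SY5Y library moved SYT1 there between -0.0390 (replicate 1) and 0.124 (replicate 3), and leaving out Kelly replicate 1 gave -0.0036. SYT4 in Kelly against BE(2)C was 0.21 with library totals only, and SV2A in BE(2)C against SH-SY5Y ran from -0.141 without BE(2)C replicate 3 to 0.0024 without BE(2)C replicate 1. The cause was not tested.

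The labels number the libraries 1 to 3 in each line and do not say that a number marks a shared culture or day. Deviations of same-numbered libraries correlated at -0.0545 to 0.0266 across genes, and in 2 of 9 cases a library correlated best with its own number in the other line. Since each line has only 3 libraries, these values cannot show whether the numbers pair the libraries. With the replicate block 6980, 7544 and 6634 genes were called for Kelly against SH-SY5Y, BE(2)C against SH-SY5Y and Kelly against BE(2)C, and among the 10 genes only SYN1 in Kelly against BE(2)C changed its call (0.34, adjusted p = 0.0403). As depth is unknown, no limit of detection can be set for SV2B, or for SV2C in BE(2)C.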

Other observations

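Genes of catecholamine synthesis and of the dense-core granule, which sympathoadrenal cells release with the same SNARE machinery, also differed between the lines. TH, the enzyme that makes L-DOPA from tyrosine, ranged from 480.0 ± 81.0 scaled TPM (SD, n = 3) in Kelly through 39.9 ± 4.71 in BE(2)C to 0.191 ± 0.176 in SH-SY5Y. DBH, which makes noradrenaline, had another order, at 1678 ± 323 in Kelly, 973 ± 23.6 in SH-SY5Y and 517 ± 98.5 in BE(2)C. The granule proteins CHGA (2594 ± 357 in Kelly, 2346 ± 362 in BE(2)C, 123 ± 1.69 in SH-SY5Y) and CHGB (419 ± 35.0, 772 ± 94.1 and 112 ± 1.55) were both lower in SH-SY5Y, while STMN2, a microtubule regulator of growing neurites, was highest there (497 ± 49.7, 1135 ± 90.9 and 1896 ± 86.3). Of the 12 neuroblast markers, all tested, 7 were higher and 5 lower in Kelly and 5 higher and 6 lower in BE(2)C relative to SH-SY5Y, and 5 were higher and 3 lower in Kelly than in BE(2)C. On values as deposited these splits were 4 to 7, 4 to 7 and 3 to 3, and with library totals only 5 to 5, 4 to 7 and 9 to 2. Over all tested genes 28.1% were higher and 27.2% lower, 28.6% and 30.7%, and 27.9% and 24.6% in the same comparisons. Of the 18 markers of other cell types, 5 were tested: 1 was higher and 1 lower in Kelly, 3 were higher and 0 lower in BE(2)C relative to SH-SY5Y, and 0 were higher and 2 lower in Kelly than in BE(2)C.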
